A study of Mus musculus with 6 samples.

Results

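The genes described here are 8 polymerase III subunits, Polr3a, Polr3b, Polr3c, Polr3d, Polr3e, Polr3f, Polr3g and Polr3k, and their repressor Maf1. They were taken by symbol from the count table of 22740 protein-coding genes, and all 9 were found and passed the filter on low counts that left 12198 genes. RNA was sequenced from B16, a mouse melanoma line that the series text also calls B16-F10 and that is labelled as negative for BRAFV600E. Cells of both groups were grown in DMEM with fetal serum and antibiotics, and 3 samples had DMSO, the solvent, and 3 had 1 uM CX-5461, each for 3 days. CX-5461 is a small molecule that blocks polymerase I, which makes the large ribosomal RNAs. The labels do not say whether the 3 samples of a group came from separate cultures, so p-values measure only the spread between these samples, which may be technical.

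RNA polymerase III transcribes short untranslated RNAs, among them the transfer RNAs, 5S ribosomal RNA, U6 and the 7SK RNA. Its largest subunits, encoded by Polr3a and Polr3b, form the active site, and smaller subunits that no other polymerase has recruit it to initiation factors, let it end transcription and start again. Maf1 is a conserved repressor that binds the polymerase and keeps it from its genes when nutrients are short. The kinase mTOR holds Maf1 inactive by phosphorylation, so polymerase III is usually described as following growth signals.

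Libraries held 17573990 to 22908309 counts, of which the 9 genes took 127 (Polr3g) to 2732 (Maf1) each per library. CX-5461 replicate 2 lay apart from replicates 1 and 3 of its group on the second principal component of log2(CPM + 1), at -12.5 against 6.90 and 5.38 (2.62% of the variance). Without it the same numbers of the 9 genes were called, 2 higher and 6 lower. All 7 melanocyte markers checked (Tyr, Tyrp1, Dct, Pmel, Mlana, Sox10 and Mitf) were at 5 CPM or more in every library, where CPM is a gene's count scaled to library size, as a level relative to all tested genes. Their summed level was 22078 to 22929 CPM with DMSO and 28253 to 30557 CPM with CX-5461. The 4 markers of fibroblasts summed to 7.87 to 10.0 CPM with DMSO and 27.0 to 29.5 CPM with CX-5461, the 3 of macrophages to 10.6 to 10.8 and 11.2 to 13.5 CPM, and the 2 of endothelium and 3 of epithelium to less than 1 CPM in every library. Of these markers only Cdh5, of endothelium, had no count in any library. The part of these differences in the results was not tested. In bulk RNA fewer transcripts per cell and fewer cells that make them cannot be told apart, and a level is always relative to the other genes.

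One subunit gene has an upstream neighbour of a class that polymerase III transcribes. RefSeq places n-TLaag4, a leucine transfer RNA gene, on chromosome 7 from 120917517 to 120917598 (GRCm38.p6), and it ends 146 bases before the start of Polr3e. Only 34 of 21919 genes of the table with a position, or 0.155%, had an annotated transfer RNA gene within 1000 bases upstream, and Polr3e was the only one among the 9 genes, Polr3gl and Crcp. Polr3e was called lower with CX-5461, and so were Polr3a, Polr3c, Polr3d, Polr3g, Maf1, Polr3gl and Crcp, which have no such neighbour. Whether such a neighbour goes with the direction of a change was not tested. The transfer RNA itself was not analysed here, since the table holds protein-coding genes. The upstream sequences of Polr3e, which was lower with CX-5461, and of Polr3k, the subunit with the largest rise, are shown to compare a gene with such a neighbour and one without. In that of Polr3e (chr7:120917528-120917743, plus strand) capitals mark the 71 bases of the transfer RNA gene in the window. In that of Polr3k (chr2:181864110-181864336, plus strand) capitals mark CCAAT on either strand. Both run 5′ to 3′ and stop just before the earliest annotated start.
Polr3e: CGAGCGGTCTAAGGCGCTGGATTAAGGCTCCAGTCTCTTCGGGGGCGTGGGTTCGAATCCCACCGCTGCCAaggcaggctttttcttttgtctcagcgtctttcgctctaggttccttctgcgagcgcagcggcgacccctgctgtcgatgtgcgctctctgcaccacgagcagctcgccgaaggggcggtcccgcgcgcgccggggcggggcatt
Polr3k: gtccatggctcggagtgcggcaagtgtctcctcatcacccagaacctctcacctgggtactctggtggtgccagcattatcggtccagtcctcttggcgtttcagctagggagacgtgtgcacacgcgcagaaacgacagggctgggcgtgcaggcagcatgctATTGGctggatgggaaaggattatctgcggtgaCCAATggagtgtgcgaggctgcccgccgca

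RefSeq promoter windows, from 250 bases before the start to 50 after it, were found for 7 of the polymerase III-specific subunit genes: Polr3b, Polr3c, Polr3e, Polr3f, Polr3g, Polr3gl and Polr3k. CACGTG, the E-box read by MYC and MITF, which is the same on both strands, was in the windows of Polr3c, Polr3e and Polr3gl, 3 of 7, and in 7.15% of all 32851 windows. GGGCGG, the GC box, was in 3 of 7 (Polr3c, Polr3e and Polr3g) and in 35.7% of all windows on either strand. CCAAT was in 2 of 7 (Polr3gl and Polr3k) against 37.4%, and the ETS core CCGGAAGT in that of Polr3b alone against 3.89%. TTTNGCGC, an E2F site, and ACTACAATT, a part of the site of Zfp143, were in none of the 7, against 1.38% and 0.393% of all windows. No hits of these motifs overlapped in the 7 windows. The 32851 windows were not limited to the 22740 protein-coding genes of the table, and the motifs were chosen after values were seen. The shares therefore come from an unmatched set of windows, and enrichment was not tested. These matches describe the letters of a window and do not show that a factor binds there.

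With CX-5461, transcripts of 5 of the 8 subunits and of Maf1 were lower and those of 2 subunits were higher. Polr3f did not pass the test. The falls ranged from 1.18-fold for Polr3c to 1.66-fold for Polr3d, and the rises were 1.15-fold for Polr3b and 1.37-fold for Polr3k. These calls are from edgeR's quasi-likelihood test on all 12198 genes at an adjusted p below 0.05. By the same rule 73.7% of all tested genes were called, 37.2% as higher and 36.5% as lower, so a count of 8 in 9 is near the share of all genes. The libraries of the groups did not overlap for 8 of the 9 genes, where 76.2% of all tested genes did not overlap. The median log2 change of the 9 genes was -0.29, against -0.005 for all tested genes.

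**Figure D1:**
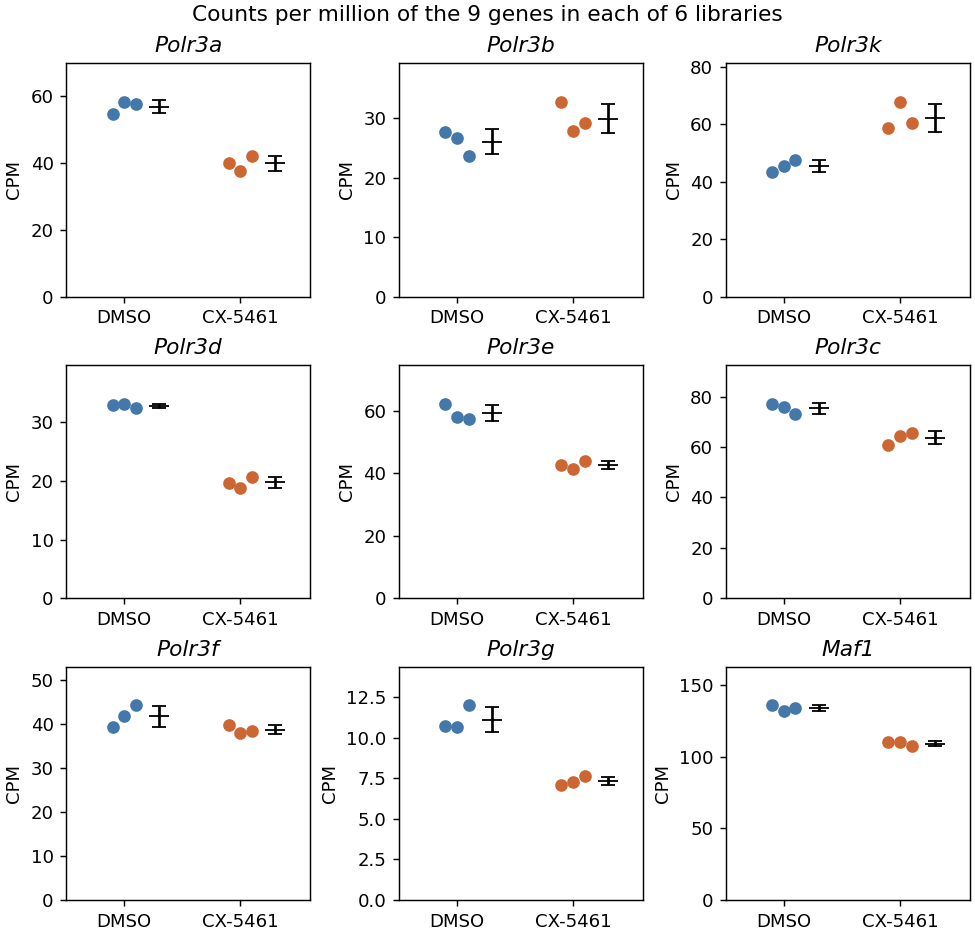
CPM of each of the 9 genes, with 1 point per library (3 DMSO in blue, 3 CX-5461 in orange) and, to the right of the points, the group mean with its SD. The groups are apart for every gene but Polr3f, and only Polr3b and Polr3k lie higher with CX-5461.

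The subunits of the active site were called in opposite directions, but the call of Polr3b did not hold in every setting. Polr3a, on chromosome 14 (24448696 to 24487058), encodes the largest, catalytic subunit. It was at 54.8, 58.3 and 57.7 CPM in the DMSO libraries and at 40.0, 37.6 and 42.2 CPM in the CX-5461 libraries. Every CX-5461 library was below every DMSO library, and the change was -0.51 ± 0.06 (log2, SE, n = 3 per group, adjusted p = 1.41e-06). Polr3b, which encodes the second-largest subunit and completes the active site, was at 27.7, 26.7 and 23.7 CPM with DMSO and at 32.7, 27.9 and 29.2 CPM with CX-5461. The lowest CX-5461 library lay only just above the highest DMSO library. The change of Polr3b was 0.21 ± 0.08 (adjusted p = 0.0316), with the highest adjusted p of the 8 calls. The call ended without DMSO replicate 2 (0.22, adjusted p = 0.0586), without DMSO replicate 3 (0.14, adjusted p = 0.163), without CX-5461 replicate 1 (0.13, adjusted p = 0.182), with library totals only (0.13) and with a GC offset (0.16).

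Polr3b is also the longest of the 9 genes, and its sign depended on how gene length on the genome was treated. It spans 104.9 kb on chromosome 10 (84622292 to 84727178, GRCm38), while the other 8 genes span 3.09 to 38.4 kb. The 1376 tested genes that span 75 to 150 kb, a range chosen after the data were seen, had a median log2 change of 0.18. With an offset for genomic span Polr3b changed by -0.11 (adjusted p = 0.201), whereas none of the other 8 genes changed sign or call with it. This offset takes out of each library its trend with span, also where the treatment itself brought that trend. It gives a change relative to genes of like span, and the part of gene length in the rise of Polr3b was not tested.

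**Figure D2:**
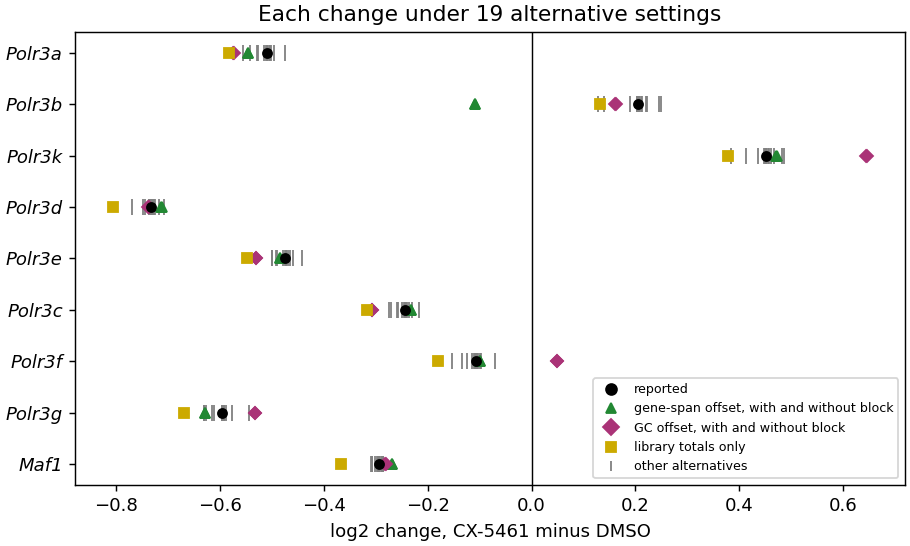
Log2 change (CX-5461 minus DMSO) of each of the 9 genes as reported (black) and under 19 alternative settings, with the gene-span offset, the GC offset and library totals drawn as coloured symbols and the others as ticks. Polr3b lies at -0.11 with the gene-span offset and Polr3f at 0.05 with the GC offset, while the other 7 genes stay on one side of 0.

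The ratio of the Polr3b to the Polr3a transcript was compared after these values had been seen. Per kb of exon, Polr3b stood at 0.560, 0.507 and 0.454 of Polr3a in the DMSO libraries and at 0.907, 0.821 and 0.767 in the CX-5461 libraries. The groups did not overlap, and the log2 ratio was higher by 0.72, or 1.64-fold, with CX-5461. An exact two-sided permutation test gave p = 0.1, the smallest that 3 against 3 libraries allow. Both genes had already been seen to separate the groups, in opposite directions. The result of this test was thus fixed beforehand and adds no evidence to their calls. The ratio was not recomputed with the gene-span offset, with which Polr3a changed by -0.55 and Polr3b by -0.11.

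**Figure D3:**
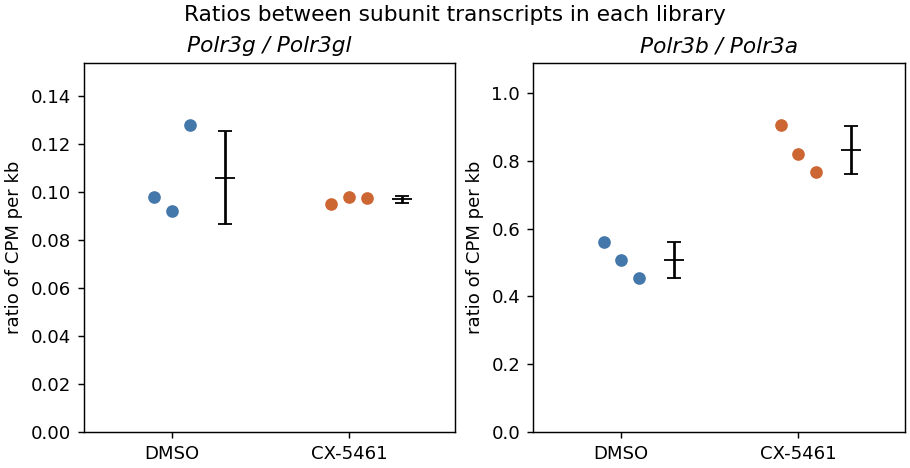
Ratio of CPM per kb of exon for 2 pairs of subunit transcripts, with 1 point per library (DMSO in blue, CX-5461 in orange) and the group mean with its SD beside the points. The Polr3g to Polr3gl ratio overlaps between the groups, and the Polr3b to Polr3a ratio is higher in all 3 CX-5461 libraries.

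Polr3k, which encodes a small subunit that takes part in cleavage of the nascent RNA and in termination, had the largest rise. It was at 43.3, 45.5 and 47.6 CPM with DMSO and at 58.7, 67.8 and 60.3 CPM with CX-5461, with no overlap. The change was 0.45 ± 0.06 (adjusted p = 1.19e-05), and it was 0.38 to 0.65 over 19 alternative settings, past the threshold in all of them. The highest of these came with a GC offset. Polr3k is a short gene of 6.49 kb on chromosome 2 (181864337 to 181870830). Over the whole table, genes called higher spanned 34.8 kb in the median and those called lower 20.4 kb. With the gene-span offset Polr3k changed by 0.47. The part of gene length in its change was not tested.

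The heterodimer of Polr3d and Polr3e, which sits near the active site and takes part in initiation, termination and reinitiation, was lower in both its members. Polr3d, on chromosome 14 (70438757 to 70443447), was at 32.9, 33.2 and 32.4 CPM with DMSO and at 19.7, 18.9 and 20.6 CPM with CX-5461. The groups lay far apart beside an SD of less than 1 CPM within each, and the change of -0.73 ± 0.07 (adjusted p = 1.12e-07) was the largest fall of the 9 genes. Polr3e, on chromosome 7 (120917744 to 120947432), was at 62.2, 58.0 and 57.4 CPM with DMSO and at 42.5, 41.4 and 43.8 CPM with CX-5461. It also did not overlap and changed by -0.47 ± 0.06 (adjusted p = 1.74e-06).

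The heterotrimer of Polr3c, Polr3f and Polr3g, which contacts the initiation factor TFIIIB and helps to open the promoter, was lower in 2 of its 3 members. Polr3c, on chromosome 3 (96711490 to 96727628), was at 77.2, 75.7 and 72.9 CPM with DMSO and at 60.7, 64.4 and 65.7 CPM with CX-5461, a change of -0.24 ± 0.05 (adjusted p = 0.000564). Polr3f, on chromosome 2 (144527718 to 144541995), was at 39.4, 41.8 and 44.2 CPM with DMSO and at 39.8, 38.0 and 38.5 CPM with CX-5461. The lowest DMSO library lay among the CX-5461 libraries, and the difference of -0.11 ± 0.06 did not pass (adjusted p = 0.128). It passed with library totals only (-0.18, adjusted p = 0.0140) and took the opposite sign with a GC offset (0.05, adjusted p = 0.441). Polr3g, on chromosome 13 (81673843 to 81711013), is a form of its subunit known from stem cells and tumours and the scarcest of the 9 transcripts. It was at 10.7, 10.7 and 12.0 CPM with DMSO and at 7.12, 7.31 and 7.63 CPM with CX-5461. The groups did not overlap, and Polr3g changed by -0.60 ± 0.10 (adjusted p = 9.44e-05).

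Polr3gl encodes the alternative form of the Polr3g subunit, the one common in differentiated cells, and polymerase III holds one or the other. It was at 44.5, 47.1 and 38.1 CPM with DMSO and at 30.4, 30.3 and 31.8 CPM with CX-5461, and it also fell, by 0.49 ± 0.08 on the log2 scale (adjusted p = 2.88e-05). Per kb of exon the Polr3g transcript was at 0.0977, 0.0919 and 0.128 of Polr3gl with DMSO and at 0.0950, 0.0980 and 0.0974 with CX-5461. The log2 ratio differed by -0.11, with overlapping groups and an exact two-sided permutation p of 0.8. Without DMSO replicate 3, the highest of the 6, it differed by 0.03. These libraries therefore give no direction for a shift between the forms, and a test of 3 against 3 could not have passed. Polr3g and Polr3gl are paralogs, and how the counting treated reads that match both is not given in the sources.

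Maf1, the repressor, was the most abundant of the 9 transcripts. It was at 135.8, 131.9 and 133.9 CPM with DMSO and at 110.3, 110.0 and 107.2 CPM with CX-5461. The groups were clearly apart, and Maf1 changed by -0.29 ± 0.04 (adjusted p = 2.15e-05), or 1.23-fold, with -0.37 to -0.27 over 19 alternatives. Its start on chromosome 15 (76351294 to 76354380) lies 183 bases from that of Sharpin, transcribed the other way, which rose by 0.28 ± 0.06 (adjusted p = 0.000455). Of the other members, 4 have a divergent coding neighbour within 1000 bases, chosen here by position alone. Rps24, beside Polr3a, was lower by 1.17-fold (adjusted p = 0.0054), Mblac2, beside Polr3g, was higher by 1.61-fold (adjusted p = 0.000151) and Dzank1, beside Polr3f, was higher by 2.09-fold (adjusted p = 1.32e-05). Mblac2 and Dzank1 were scarce, at means of 4.77 and 2.90 CPM with DMSO and of 7.66 and 6.05 CPM with CX-5461. Rnf115, beside Polr3c, did not pass (-0.05, adjusted p = 0.373). Asl, 43 bases from the start of Crcp, a further subunit that was lower, changed by -0.47 ± 0.05 (adjusted p = 5.58e-07). Rps24 and Asl were thus called lower as their partners were, and Sharpin and Mblac2 were called higher beside partners that were lower. The neighbours were not examined under the alternative settings, the gene-span offset among them.

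**Figure D4:**
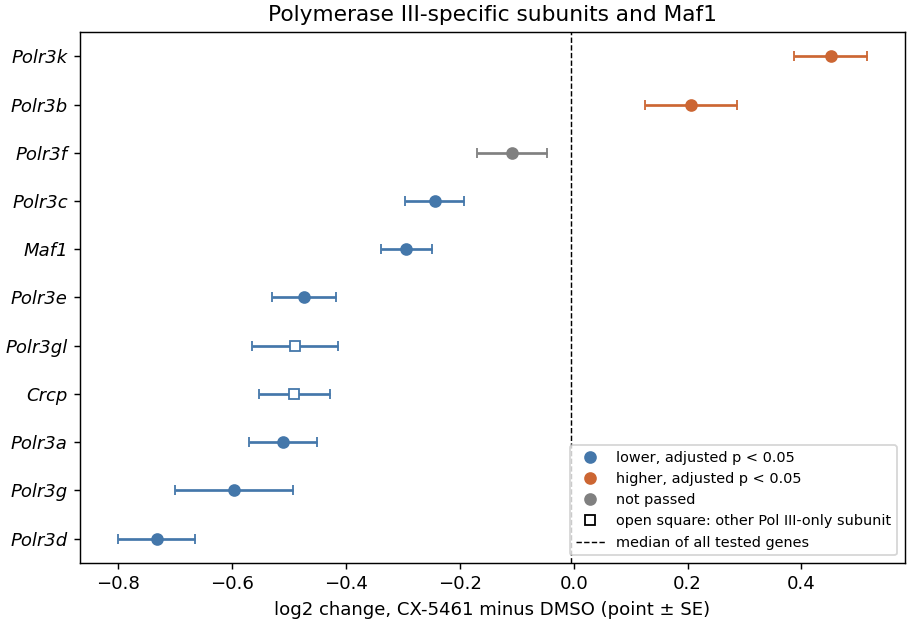
Log2 change (CX-5461 minus DMSO) with its standard error for the 8 subunits and Maf1 (filled circles) and 2 further polymerase III-specific subunits, Polr3gl and Crcp (open squares), coloured by call, with a dashed line at the median of all tested genes. Polr3d is lowest at -0.73, Polr3k is highest at 0.45, and Polr3f did not pass.

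Per kb of exon, where levels can be set against each other, the DMSO order was Maf1 (55.5 ± 0.811 CPM per kb, SD), Polr3c (22.2 ± 0.643), Polr3k (14.6 ± 0.698), Polr3e (11.8 ± 0.525), Polr3d (11.5 ± 0.126), Polr3a (9.77 ± 0.328), Polr3f (5.42 ± 0.314), Polr3b (4.95 ± 0.398) and Polr3g (2.83 ± 0.193). The libraries of Polr3e and Polr3d overlapped, as did those of Polr3f and Polr3b, and no other neighbours in this order did. With CX-5461 Polr3k (19.9 ± 1.55) and Polr3c (18.8 ± 0.759) changed places in the order but overlapped. Polr3b (5.69 ± 0.476) stood above Polr3f (5.03 ± 0.120) with no overlap. Polr3d (6.92 ± 0.308) and Polr3a (6.85 ± 0.394) overlapped with CX-5461 and had not with DMSO. Exon lengths are the union of all annotated transcripts, so a gene with a long, little-used exon is placed too low.

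Polr3gl and Crcp, 2 further subunits found only in polymerase III, were both lower. With the 8 above this makes 7 of 10 lower, 2 higher and 1 not passed, at a median of -0.48. This count and those of the lists below stand beside 36.5% of all tested genes called lower and 37.2% called higher. Crcp, of the stalk, was at 49.3, 51.6 and 54.0 CPM with DMSO and at 38.8, 36.8 and 34.5 CPM with CX-5461, a change of -0.49 ± 0.06 (adjusted p = 3.94e-06). Of the 7 subunits shared with other polymerases, 3 fell, 1 rose and 3 missed the threshold (median -0.16). The single rise was lost without DMSO replicate 2, DMSO replicate 3 or CX-5461 replicate 2, with library totals only and with a GC offset. Among them Polr2h, present in all nuclear polymerases, changed by -0.44 ± 0.09 and Polr1c, shared with polymerase I, by -0.41 ± 0.05. For comparison, of 6 polymerase I-specific subunits 4 fell and none was called higher (1 was, without CX-5461 replicate 2). Their median was -0.32, and -0.39 to -0.28 over 19 alternatives. Twistnb changed by -0.72 ± 0.07 and Znrd1 by -0.48 ± 0.09, but by -0.51 and -0.54 with a GC offset. Of 8 polymerase II-specific subunits 2 rose and 3 fell. Their median of -0.11 was -0.06 without CX-5461 replicate 1, -0.07 without DMSO replicate 2 and -0.18 without CX-5461 replicate 2 or with library totals only. Polr2a, the largest subunit, changed by -0.69 ± 0.08 and Polr2c by -0.38 ± 0.06, the latter with exons that overlap those of Dok4. Whether the polymerases differ from each other in this was not tested.

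The initiation factors were mixed, where 36.5% of all tested genes were called lower and 37.2% higher. Of 4 genes of TFIIIB, which brings the polymerase to the start site, 1 rose, 1 fell and 2 missed the threshold (median -0.11, but -0.18 with library totals only and -0.06 with a GC offset). Brf1 was at 56.2, 63.1 and 58.6 CPM with DMSO and at 77.2, 76.6 and 74.8 CPM with CX-5461, a change of 0.36 ± 0.05 (adjusted p = 2.15e-05). Bdp1, another part of the same factor, changed by -0.49 ± 0.07 (adjusted p = 8.07e-06). So parts of one factor were called in opposite directions. Of 7 genes of TFIIIC and TFIIIA, which bind the internal promoters, 2 rose, 2 fell and 3 missed the threshold. Their median of -0.04 was -0.06 without CX-5461 replicate 1, -0.02 without CX-5461 replicate 3 or DMSO replicate 3 and -0.11 with library totals only, and 1 fell with a GC offset. Gtf3c1, the largest TFIIIC subunit, was at 151.0, 145.9 and 143.6 CPM with DMSO and at 290.3, 264.6 and 297.1 CPM with CX-5461. That is 1.93-fold higher with no overlap (log2 0.95 ± 0.05, adjusted p = 1.49e-10), larger in size than the change of any of the 9 genes. Gtf3c4 changed by -0.36 ± 0.05.

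Of 7 genes of the SNAP complex and its activators, which serve the U6-type promoters, 5 fell, none was called higher and 2 missed the threshold, where 36.5% of all tested genes were called lower. The median was -0.39. With a GC offset 3 fell and 1 rose, with a median of -0.16. Also 1 was called higher without DMSO replicate 2, without CX-5461 replicate 1, with a replicate block, with the gene-span offset, with upper-quartile factors, with the 1 CPM filter and with thinned counts, with 5 lower in each. Zfp143, an activator of these promoters and of many others, was at 44.4, 43.9 and 43.1 CPM with DMSO and at 20.3, 20.4 and 21.5 CPM with CX-5461, a 2.11-fold fall (adjusted p = 5e-10). Pou2f1, the octamer factor, changed by -0.77 ± 0.10 (adjusted p = 2.77e-06), and by -1.25 with the gene-span offset. Its exons overlap those of Cd247 over 18.1% of their length.

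Of 9 genes of the kinases and phosphatases that act on Maf1, 4 fell, 3 rose and 2 missed the threshold. Among all tested genes 36.5% were called lower and 37.2% higher. The median of the 9 genes was 0.02 and took the opposite sign with library totals only (-0.05) and without CX-5461 replicate 2 (-0.02). It was 0.05 without CX-5461 replicate 3 and 0.01 without DMSO replicate 1. Rptor, the scaffold through which mTOR complex recruits its substrates, rose 2.42-fold, from 38.5, 36.5 and 36.8 CPM to 93.5, 78.9 and 98.4 CPM (adjusted p = 3.89e-10). It spans 296.7 kb, and its log2 change was 1.28 without an offset. With the gene-span offset, thus relative to genes of like span, Rptor was higher by 0.18 (adjusted p = 0.00921). Mtor, the kinase, rose by 0.34 ± 0.07 (adjusted p = 0.000287), and by 0.0070 with that offset (adjusted p = 0.915). The part of gene length in either rise was not tested. These are transcript levels, and phosphorylation of Maf1 was not measured.

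Genes that mature polymerase III transcripts include La, RNase P, the transfer RNA splicing and export factors and the 7SK binding proteins. Beside 36.5% of all tested genes called lower and 37.2% higher, 9 of the 21 tested here fell, 5 rose and 7 missed the threshold (median -0.09). The 5 that rose came to 3 without DMSO replicate 1, 2 or 3 or CX-5461 replicate 2, to 2 without CX-5461 replicate 3 and to 2 with library totals only, where 11 fell and the median was -0.17. Rpp38 and Rpp40, proteins of RNase P, which trims the leader of transfer RNAs, changed by -0.85 ± 0.09 (adjusted p = 4.46e-07) and -0.70 ± 0.10 (adjusted p = 9.18e-06). Rpp25 had too few counts to be tested.

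**Figure D5:**
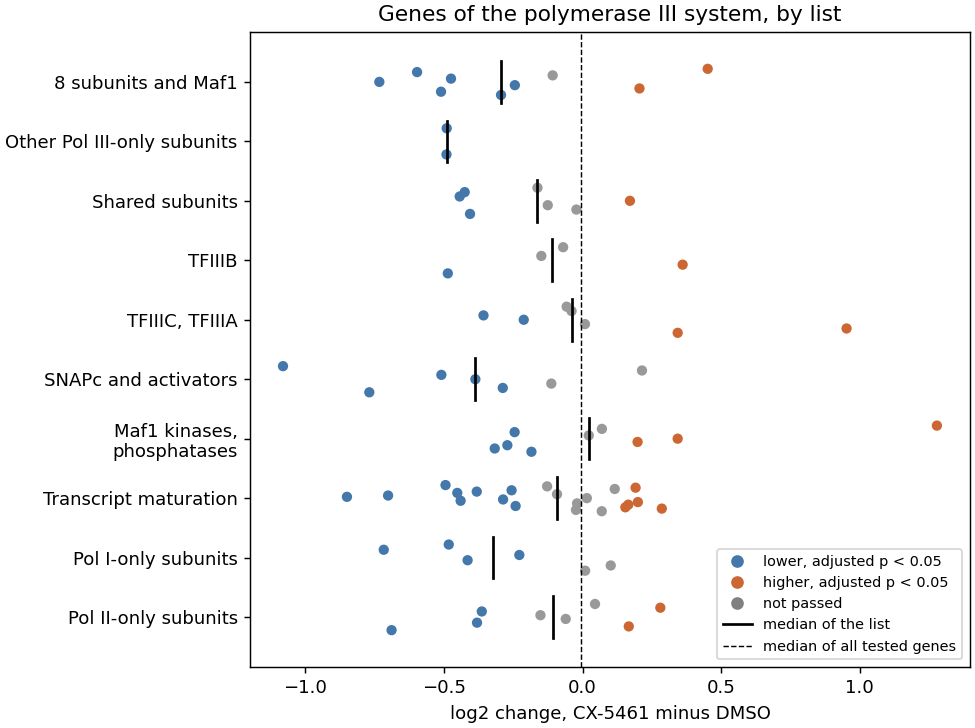
Log2 change (CX-5461 minus DMSO) of every tested gene in 10 lists of the polymerase III system and of the subunits of the other polymerases, with 1 point per gene coloured by call, a bar at the median of the list and a dashed line at the median of all tested genes. Polr3gl and Crcp, the other polymerase III-only subunits shown, lie below 0, and Rptor at 1.28 and Gtf3c1 at 0.95 lie farthest to the right.

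The genes whose pattern over the 6 libraries was most like that of Polr3a were Tex10, Rcor2 and Med26, by Pearson's r of log2 CPM (0.9994, 0.9987 and 0.9986), and those most like Maf1 were Herpud2, Chac2 and Bbs4 (0.9996, 0.9992 and 0.9991). The 6 libraries form 2 groups, so r mostly records the difference between them, and 2792 and 3031 of 10098 genes compared had an r above 0.9 with Polr3a and Maf1. The sizes of the changes differed: Rcor2 changed by -1.77 and Tex10 by -0.46, where Polr3a changed by -0.51.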

How the data were processed

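The authors deposited whole-number counts of reads per gene, unnormalized since the column totals differ (17573990 to 22908309), and their processing notes name the builds GRCm38 and mm10. No source used here gives the aligner, the counting tool or the strand setting. How reads in exons that overlap another gene were counted is therefore not known. Besides Polr2c and Pou2f1, this holds for other called genes of the lists, such as Gtf3a (59.1% of exon length, with Mtif3) and Mlst8 (22.5%, with Bricd5). Column names matched the 6 samples. Genes were kept by filterByExpr (minimum count 10) and scaled by TMM factors. Treatment was tested with edgeR 4.0.16 (quasi-likelihood F test, R 4.3.3) on all 6 libraries, two-sided, with Benjamini-Hochberg adjustment over 12198 genes and a threshold of 0.05. Standard errors are the absolute log2 change over the root of the F statistic. The common biological coefficient of variation was 4.86%. Alternatives used RLE, upper-quartile and no factors, other filters, DESeq2 1.42.0, limma-voom (limma 3.58.1), a replicate block, loess offsets for transcript GC and gene span centred on their median, each library left out, thinned counts and a threshold of 0.01. Both offsets were fitted to each library's deviations from the mean of all 6 libraries. These offsets therefore also take out a treatment effect shared by genes of like GC or span. Positions and exon lengths are from GENCODE M21 (GRCm38), which matched 21919 of 22740 identifiers, and promoter and transfer RNA positions are from RefSeq (GRCm38.p6). The genes and lists were chosen with earlier results of these data known, and the motifs and the Polr3b to Polr3a ratio after seeing values. The genes named from each list were the 2 called with the largest change at 5 CPM or more, plus Polr3gl. Rpp25 and the divergent neighbours were added afterwards. A result on 1 listed gene is not reported here, and that gene was left out of its list.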

Additional observations from a re-analysis of the deposited data

How the results depend on the processing

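Over 19 alternative fits, the calls of Polr3a, Polr3c, Polr3d, Polr3e, Polr3g, Polr3k and Maf1 kept their direction and their side of the threshold, and 6 members were called lower in all but the fit on library totals, where 7 were. Members called higher came to 1 in place of 2 with library totals only, with a GC offset, with that offset and a replicate block, with the gene-span offset, with that offset and a replicate block, at an adjusted p of 0.01, and to 1 to 2 when single libraries were left out. Polr3b was at -0.11 with the gene-span offset, with and without the replicate block, and Polr3f at 0.0495 with the GC offset and 0.0499 with that offset and the block. The cause was not tested. The called subunits shared with other polymerases came to 2 in place of 4 with the GC offset, with and without the block, and at 0.01, and those of transcript maturation to 9 in place of 14 at 0.01. The median of the Maf1 enzymes was -0.0511 with library totals only and -0.0162 at the lowest and 0.0529 at the highest with a library left out. The Polr3g to Polr3gl log2 ratio ran from -0.208 to 0.0306 with a library left out. Deviations of same-numbered libraries from their group means had correlations of 0.036, 0.004 and -0.008, and those of differently numbered ones ran from -0.040 to 0.035. Such small values do not show whether libraries were paired by culture or day. With the replicate block 9000 genes were called in place of 8986, of which 8883 were called in both. At these depths Polr3g, with 127 to 221 counts, is the least precise of the 9 genes.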
